A study of Mus musculus with 8 samples.

Results

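The left ventricle of mice on a normal salt diet was described from 4 samples, N1 to N4, of the 8 samples in a study of dietary salt. The animals were C57Bl/6j males, from an inbred strain, that had eaten chow with 0.4% sodium for 8 weeks when killed at 16 weeks of age. Septum, free wall and apex were homogenised together, so each value is an average over all cells of the chamber wall. The series calls its samples biological replicates, and each is called a mouse here. Total RNA was amplified, labelled with Cy3 or Cy5 and hybridised in pairs to 2-colour Agilent mouse arrays, with N1 (Cy3) and N2 (Cy5) on the first array and N3 (Cy3) and N4 (Cy5) on the second. Each mouse was read in its own dye, every gene name was read from its brightest probe, and 30199 gene names were ranked by normalised log2 intensity. The low salt samples were left out and no diet comparison was made.

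The ventricle wall is built mostly from cardiomyocytes, cells that contract without pause and are packed with sarcomeres and mitochondria. Sarcomeres pull thin filaments of actin, tropomyosin and troponin past thick filaments of myosin, under the control of calcium released from the sarcoplasmic reticulum. The heart takes most of its ATP from oxidative phosphorylation and burns fatty acids, lactate and glucose. Many of these proteins exist as isoforms from separate genes, one typical of heart and others of skeletal muscle, smooth muscle, the fetus or tissues at large.

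Intensity here is a log2 value per probe, on which 1 unit is a 2-fold difference in signal. A probe reads 60 bases of a transcript. Probes differ in how strongly they bind, and probes of the same gene can read different parts of it. Brightness is therefore not a calibrated amount of RNA. Each array had 44397 spots, of which 43020 were not controls. Between 53.9% and 66.2% of these were called well above background by the scanner software. The 153 negative control spots had medians between 6.11 and 6.21, and no spot was saturated. Of the 30199 gene names, 16026 (53.1%) were well above background in all 4 mice, 5184 (17.2%) in 1 to 3 mice and 8940 (29.6%) had no probe above it in any mouse. Among the 22502 names that matched a current mouse symbol the shares were 58.9% for all 4 mice and 25.1% for none. Mice ranked the detected genes alike, with Spearman correlations across genes of 0.975 to 0.991, the highest for the mice that shared an array. Precision is limited by having only 2 arrays, and an exact sign permutation test over 4 mice cannot go below p = 0.125, so levels are given with their spread and without a test.

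Genes of the contractile apparatus held 5 of the first 10 places. Myl3, the ventricular essential myosin light chain, stood first, with a log2 intensity of 18.31 ± 0.50 (SD, n = 4), and read 17.86 in N1, 18.82 in N2, 17.90 in N3 and 18.64 in N4. Its probe lies at chr9:110672238-110672297 on the plus strand of mm9, the genome build of the array design. Actc1, cardiac alpha-actin, read 17.80, 18.74, 17.74 and 18.79 in N1 to N4, at place 3. In both genes the mice labelled with Cy5 were the brighter ones.

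Tpm1, which encodes alpha-tropomyosin, reached 18.19 ± 0.48, and Myh6, the alpha-myosin heavy chain that is the main motor of the adult mouse ventricle, 18.09 ± 0.51. Myl2, the ventricular regulatory light chain, read 17.997, 18.54, 17.59 and 18.24 and was the brightest gene of all in N1. Tcap, which caps titin at the Z-disc, Tnnt2, cardiac troponin T, and Tnni3, cardiac troponin I, had means of 17.98, 17.95 and 17.79. Of 79 genes of contractile and sarcomere proteins on the array, 11 were in the top 100 and 25 in the top 1000. The top 1000 are 3.31% of all gene names. The 11 include Cryab, a small heat shock protein, and Myh8, whose other probes were far dimmer. The order among the first 10 is within the spread between mice, since they lay between 18.31 and 17.99 and the median SD in this band was 0.44.

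By the median, though not in every gene, the brightest genes read higher in Cy5. Over the top 100 the Cy5 mouse was brighter than the Cy3 mouse by a median of 0.43 on the first array and 0.30 on the second. Over all detected genes the median difference between dyes was 0.00, a value largely set by the normalisation, which evens out the dyes of each array. The median SD was 0.26 in the top 100 and 0.13 over all detected genes. The dyes thus differed in the median over the brightest genes, and because each mouse had 1 dye, dye and mouse cannot be told apart in this spread. The top 100 held 16.8% to 16.9% of the summed raw signal in the Cy3 mice and 22.9% to 23.6% in the Cy5 mice. The lists themselves were similar, with 74 genes in the top 100 of all 4 mice.

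**Figure D1:**
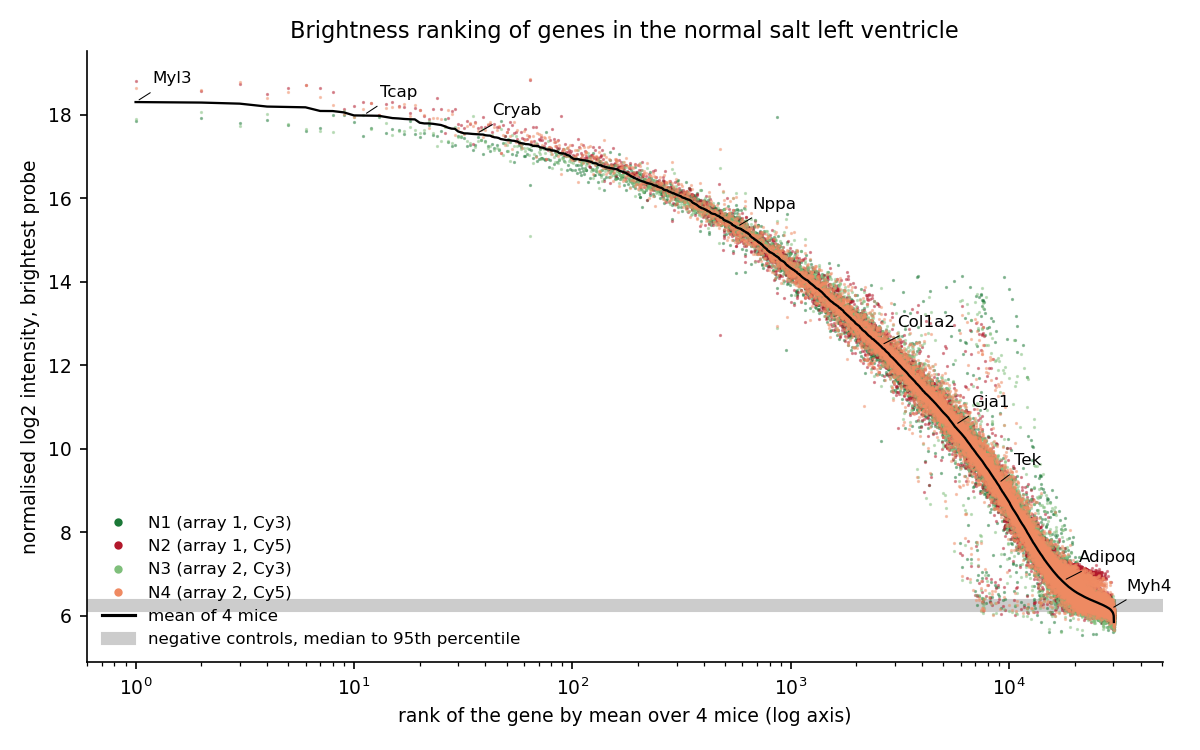
Normalised log2 intensity of each gene's brightest probe (vertical axis) against the gene's rank by the mean of 4 mice (horizontal log axis); points are single mice coloured by mouse and dye, the black line is the mean, and the grey band runs from the median to the 95th percentile of the negative control spots. The curve stays between 18.31 and 16.97 over the first 100 genes, reaches 14.33 at place 1000 and 8.73 at place 10000, and the Cy5 mice lie mostly above the Cy3 mice at the top.

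Oxygen supply was represented near the very top by Mb. Myoglobin binds oxygen inside the cardiomyocyte. Mb ranked second at 18.29 ± 0.34 and read 17.92, 18.57, 18.08 and 18.61 in N1 to N4. Hba-a2, an alpha-globin gene of red blood cells, reached 17.77 ± 0.51.

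Transcripts of the mitochondrial genome filled 9 of the top 100 places, out of 13 protein genes. The mitochondrial genome encodes core subunits of the respiratory chain and of ATP synthase, transcribed as long precursors from both strands. mt-Co2, a cytochrome oxidase subunit, read 17.98, 18.13, 18.09 and 18.03 in N1 to N4, and mt-Cytb, the cytochrome b of complex III, averaged 17.99 ± 0.16. In mt-Co2 the 4 mice differed far less than in Myl3, and the dyes overlapped. The design places several of these probes, including those of mt-Co2 and mt-Co3, on chromosome 1 rather than on the mitochondrial chromosome. A nuclear copy and the mitochondrial transcript cannot be told apart with them.

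A pair of mitochondrial genes stood apart from the rest. mt-Nd6, the only protein gene on the other strand of the mitochondrial genome, read 7.77, 7.69, 7.65 and 7.49, while the other 12 had means between 16.62 and 18.06. mt-Co1, the catalytic subunit of cytochrome oxidase, averaged 17.29 but read 16.32 in N1 and 15.10 in N3, both Cy3, against 18.85 in N2 and 18.87 in N4, both Cy5. It was the brightest gene name of all in both Cy5 mice and fell as low as place 659 in a Cy3 mouse. This range of 3.76 was the widest among those of the 1000 brightest gene names that had a symbol and a value in all 4 mice. Its single probe, shown because no other bright probe split so far by dye, lies at chrM:6650-6709 in mm9:
mt-Co1: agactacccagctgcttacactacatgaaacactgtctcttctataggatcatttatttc

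Nuclear genes for the same machinery were nearly all bright. Of 86 nuclear subunits of oxidative phosphorylation, 22 were in the top 100 and 77 (89.5%) in the top 1000. Cox6a2, the heart and muscle form of cytochrome oxidase subunit 6a, led them at 18.20 ± 0.30 and read 17.87, 18.50, 18.01 and 18.41. Cox7a1, another heart and muscle form, followed at 17.89 ± 0.14, with Atp5b, the catalytic beta subunit of ATP synthase, at 17.81 and Ndufa13, a complex I subunit, at 17.58. All 37 genes whose symbol begins with Nduf were well above background in all 4 mice, and 34 of them were in the top 1000. Chchd10, a small protein of the mitochondrial intermembrane space, reached 17.76.

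The enzymes that feed and export this energy were also high. Slc25a4, which exchanges ADP and ATP across the inner mitochondrial membrane, read 17.62, 18.72, 17.66 and 18.72, and both Cy5 mice exceeded both Cy3 mice by more than 1. Fabp3, the heart fatty acid binding protein, averaged 17.67 with its brightest probe and 17.61 with its other one. In the citric acid cycle 12 of 14 genes were in the top 1000 and 3 in the top 100, led by Mdh2, mitochondrial malate dehydrogenase, at 17.46. In glycolysis 13 of 23 were in the top 1000, led by Gapdh at 17.98, and in fatty acid use 17 of 31. Cytosolic ribosomal proteins and elongation factors gave a different picture: 75 of 82 were in the top 1000 but only 2 in the top 100, the higher of them Tpt1, a translationally controlled protein, at 17.53.

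Brightness differed between probes of the same gene, and the cause of these differences was not tested. The label of the ranking, transcript abundance, was checked with the 7227 gene names that had 2 or more probes. The median difference between the brightest and the next probe of a gene was 0.86, the upper quartile was 2.07 and the 95th percentile 4.65. In the top 100 the 32 such genes had a median difference of 2.85, and 13 of them differed by more than 5. The ranking is therefore called a brightness ranking, and the probe gaps are the yardstick for differences between genes.

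Some bright names shared sequence with others. The brightest probe of Gapdh carries a position on chromosome X and the next one a position on chromosome 8, although Gapdh itself lies on chromosome 6, where its other 5 probes are placed. These read from 17.32 down to 14.52. The brightest probe shares a run of 20 bases with probes of 6 other names, among them LOC101056557, Gm12070 and Gm5523 at 17.92, 17.91 and 17.78. Their values differed from that of Gapdh by less than the SD over mice. Such a shared run was found for the brightest probe of 40 of the top 100 genes, 44.1% of the top 1000 and 7.98% of all gene names.

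A second set of bright probes holds letters of the B1 and B2 repeats, short interspersed elements present in many copies throughout the mouse genome and in many transcripts. Glrx2, a mitochondrial glutaredoxin, averaged 17.66, Med16, a Mediator subunit, 17.53, and Elk1, an ETS transcription factor, 17.38. These 3 probes, on 3 different chromosomes, contain the same 30 bases. Those stretches are shown with 1 of the searched runs of B1 letters, AGTTCCAGGACAG, in capitals, beside those of Ttc38 and Kctd14, whose sequences differ from them at single bases:
Glrx2: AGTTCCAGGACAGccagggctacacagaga
Med16: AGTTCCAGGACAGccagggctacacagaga
Elk1: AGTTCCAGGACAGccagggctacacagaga
Ttc38: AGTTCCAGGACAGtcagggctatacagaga
Kctd14: AGTTCCAGGACAGccagggctatacaaaaa
The probes lie in mm9 at chr1:145596708-145596767 (Glrx2), chr10:79357669-79357728 (Med16), chrX:20510521-20510580 (Elk1), chr15:85688096-85688155 (Ttc38) and chr7:104606896-104606955 (Kctd14).

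Probes of the same genes without these letters were far dimmer, though several of them were well above background in all 4 mice. For Elk1 the other probe read 6.76, for Med16 10.87, for Glrx2 12.04 and 7.57, and for Kctd14 6.78 and 6.40. For Ttc38 the other 3 read 10.56, 8.12 and 7.85 against 17.25 for the bright one. B2 letters, in capitals below, were found in the brightest probes of Synrg, a clathrin adaptor partner, at 17.04, of Pirb, a leukocyte receptor, at 16.97, and of Zfp408, a zinc finger protein, at 15.20:
Synrg: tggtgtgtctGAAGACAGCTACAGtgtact
Pirb: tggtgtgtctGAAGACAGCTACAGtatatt
Zfp408: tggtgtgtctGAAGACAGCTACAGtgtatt
Their probes lie at chr11:83855517-83855576 (Synrg), chr7:3663046-3663105 (Pirb) and chr2:91483850-91483909 (Zfp408). The other probes of Synrg read 11.60 and 9.11, and those of Pirb 9.17 and 6.52, while Zfp408 had no other probe to compare. The bright probe of Synrg had no value in N2, so its mean is over the other mice.

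Counted over the array, 20 probes held the B1 letters (GGACAGCCAGGG, AGTTCCAGGACAG, TACACAGAGAAACC or TTTAATCCCAGCAC) in the direction of the transcript, and 19 of them were well above background in all 4 mice, with a median of 15.01. All 13 probes with the B2 letters (GAAGACAGCTACAG or GGCTCACAACCATC) were, with a median of 16.72. The median over all 39429 probes was 7.10, and 51.0% were well above background. Of genes that also had a probe without the letters, the probe with them was the brighter in 9 of 10 for B1 and in 9 of 10 for B2, by medians of 6.67 and 6.62. On the opposite strand the letters occurred in 15 and 3 probes, with medians of 9.54 and 9.06. Among brightest probes the letters were found for 8 of the top 100, 24 of the top 1000 (2.4%) and 0.103% of all gene names. The letters were chosen after these bright probes had been seen, and a match is a description of the probe only.

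Probes with runs of alternating bases were also bright, at a lower level. All 51 probes with 20 bases of GT repeat were well above background in all 4 mice, with a median of 13.38, as were all 22 with 20 bases of CA repeat, with a median of 13.56. With the repeat on the opposite strand the medians were alike, at 13.14 for GT and 13.41 for CA, unlike those of the B1 and B2 letters. The repeat probe was the brightest of its gene in 33 of 33 and 14 of 14 genes that had another, by medians of 5.61 and 6.43. Several genes of other organs were read by such a probe. The stretches of 3 are shown with the first 20 bases of repeat in capitals, beside a probe of Scn8a with a shorter GT run:
Snap25: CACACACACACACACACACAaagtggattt
Fgf23: CACACACACACACACACACAtacatgtaat
Slc8a3: CACACACACACACACACACAcacacacaca
Scn8a: acatgtatGTGTGTGTGTGTGTGaagaatg
They lie at chr2:136607709-136607768 (Snap25), chr6:127030758-127030817 (Fgf23), chr12:82299156-82299215 (Slc8a3) and chr15:100875702-100875761 (Scn8a). Snap25, a synaptic fusion protein, read 14.13, and Fgf23, a hormone made by bone, 14.11 with the repeat probe and 6.09 with its other probe.

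Probes rich in cytosine were a further bright set. Of 39429 probes 17 were at least 50% C, all 17 were well above background in all 4 mice, and in 7 of 7 genes with another probe they were the brighter, by a median of 5.34. Zfp628, a zinc finger protein at place 26, read 17.90, 17.57, 17.71 and 17.72 with such a probe and 9.28 with its other one. Hcn2, a pacemaker channel, averaged 14.95 with its C-rich probe and was dimmer with the other. The probes of Zfp628 (chr7:4871046-4871105) and Hcn2 (chr10:79198412-79198471) read:
Zfp628: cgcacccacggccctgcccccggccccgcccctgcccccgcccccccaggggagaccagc
Hcn2: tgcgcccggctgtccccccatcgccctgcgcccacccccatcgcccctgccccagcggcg

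**Figure D2:**
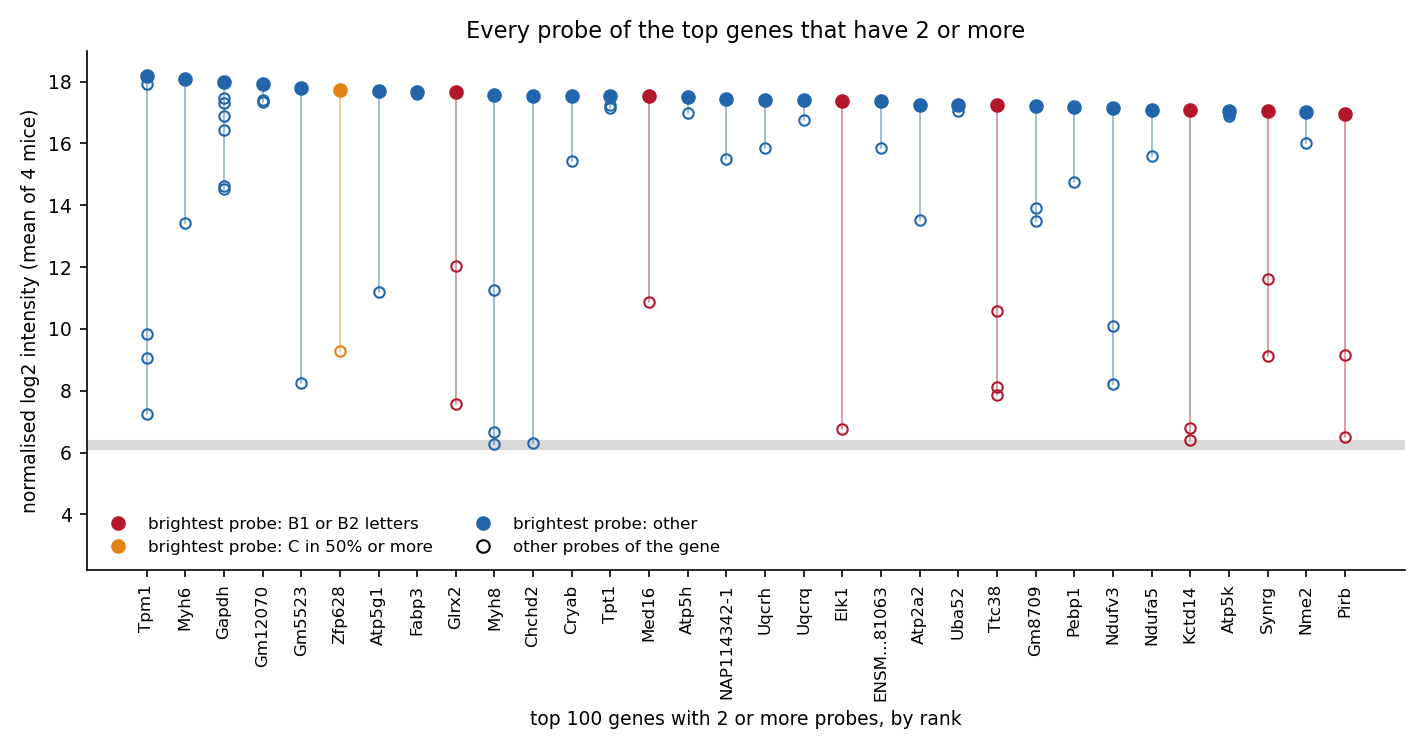
Mean log2 intensity of every probe (vertical axis) for the top 100 genes that have 2 or more probes, ordered by rank (horizontal axis); the colour of the brightest probe gives its group (B1 or B2 letters, C-rich, other), filled points are the brightest probe, open points the other probes, and the grey band is the negative controls. The 7 genes with B1 or B2 letters had a median gap to the next probe of 6.69, and the 24 other genes 1.53.

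Beyond repeats, some bright probes held none of the letters searched. Myh8, the perinatal myosin heavy chain, stood at place 33 with 17.26, 17.85, 17.38 and 17.73 in N1 to N4, but its 3 other probes read 11.27, 6.66 and 6.27. Chchd2, a mitochondrial regulator, read 17.55 with one probe and 6.30 with the other, and Atp5g1, a c subunit of ATP synthase, 17.69 and 11.21. The bright Myh8 probe is shown with the probe of Myh3, the embryonic myosin heavy chain, which read only 6.77:
Myh8: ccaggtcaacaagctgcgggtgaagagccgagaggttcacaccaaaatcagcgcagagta
Myh3: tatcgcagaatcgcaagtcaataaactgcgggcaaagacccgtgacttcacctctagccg
They lie at chr11:67121925-67121984 and chr11:66915107-66915166. Where they could be aligned without gaps, 29 of 48 bases were the same (60.4%), and 28 of 43 (65.1%) against the probe of Myh13, which read 6.27.

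With these gaps as the yardstick, the isoform order was compared in 67 gene families. The same member was brightest in all 4 mice in 60 of them. The gap to the next member exceeded the median probe gap of 0.86 in 51 families, 2.07 in 40 and 4.65 in 16. These limits are over all genes with several probes, including dim ones. In the top 1000 the same limits were wider, at 1.47, 4.33 and 8.83, so for bright families the counts are lenient. In 21 families the brightest member had several probes, and in 9 of these it was still the brightest by its dimmest probe.

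The thin filament showed the cardiac isoforms far above the skeletal ones. Tnni3 read 17.56, 17.97, 17.64 and 18.01, against 9.28 ± 0.17 for Tnni2, the fast skeletal troponin I, and 7.23 ± 0.30 for Tnni1, the slow form that the fetal heart uses. The gap of 8.51 ± 0.24 to Tnni2 exceeded the 95th percentile of probe gaps over all genes. It lay below that of the top 1000, 8.83. Tnnc1, cardiac and slow troponin C, exceeded the fast form Tnnc2 by 8.09 ± 0.23 (16.01 against 7.91), and Tnnt2 exceeded Tnnt1 by 5.97 ± 0.26 (17.95 against 11.98). Among tropomyosins Tpm1 led Tpm3 by 5.19, but its 5 probes, all on chromosome 9, read 18.19, 17.91, 9.84, 9.07 and 7.26, so the lead holds for the bright pair only. In the actins Actc1 led, followed by the cytoplasmic forms Actg1 at 15.35 and Actb at 15.28, skeletal Acta1 at 13.32 and smooth muscle Acta2 at 13.26. The last 2 differed by less than their SDs of 0.36 and 0.24.

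The thick filament was led by Myh6, whose second probe read 13.44. Myh7, the beta-myosin heavy chain of the fetal and stressed mouse heart, read 12.49, 13.42, 12.41 and 12.11, below Myh7b at 15.99 and Myh14 at 12.95. N2 was the highest mouse for Myh7. By its brightest probe Myh6 exceeded Myh7 in every mouse, whereas its second probe lay above Myh7 in 3 of 4 mice, with N2 at 13.32 against 13.42, and on average by less than the median gap between probes. Mybpc3, the cardiac myosin-binding protein C, read 17.14 against 10.31 for the fast skeletal Mybpc2. Ttn, the giant titin spring, ranged over its 4 probes from 15.83 to 10.55, and Actn2, the Z-disc alpha-actinin, from 15.47 to 6.80.

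Calcium release and uptake followed the cardiac forms too. Atp2a2, the SERCA2 pump, read 16.95, 17.71, 16.85 and 17.50, and its second probe 13.52, both above the skeletal Atp2a1 at 12.17 ± 0.45. Casq2, cardiac calsequestrin, exceeded skeletal Casq1 by 6.71 (14.91 against 8.20), and Ryr2, the cardiac release channel, exceeded Ryr3 by 6.11 (13.39 against 7.28). Ryr1, the skeletal release channel, was not well above background in any mouse. Ryr2 read 12.63 and 13.03 on the first array and 13.89 and 14.01 on the second, so the arrays did not overlap. Among regulators of the pump, Pln (phospholamban) averaged 15.07 ± 0.20 and Sln (sarcolipin) 12.46 ± 1.63.

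A repeat probe headed the sodium-calcium exchangers and the sodium channels. Slc8a3 stood above Slc8a1, the cardiac sodium-calcium exchanger in all 4 mice, at 11.94 against 8.89, and Scn8a, a neuronal sodium channel, read 10.89. Without the repeat probes shown above, Slc8a3 read 7.20, below Slc8a1, and Scn8a read 6.62 and 6.28. Cacna1c, the cardiac L-type calcium channel, led Cacna1s by 0.41 only (11.71 against 11.30). Gja1 (connexin 43), the main gap junction protein of ventricle, led Gja4 in 3 of 4 mice, with N1 at 10.43 against 10.47. Kcnj2, which carries the resting inward rectifier current, ranked at place 13874, far below Kcnj5 at 11.76.

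Respiratory chain isoforms were led by the heart and muscle forms. Cox6a2 exceeded the ubiquitous Cox6a1 by 2.12 ± 0.32, Cox7a1 exceeded Cox7a2 by 2.14 ± 0.20 and Cox8b exceeded Cox8a by 1.68 ± 0.14. In each of the 3 pairs the ubiquitous form was itself in the top 1000, at 16.08, 15.75 and 15.73. These 3 differences exceeded the median gap between probes in the top 1000, 1.47, but not its upper quartile of 4.33. Cox4i1, the common subunit 4, read 17.29, 17.33, 17.37 and 17.34, an SD of 0.04, and its hypoxia-linked partner Cox4i2 10.17 ± 0.12. Cox7b stood 10.33 above its testis-type partner Cox7b2, which was well above background in 2 mice only. Slc25a4 stood 5.01 above Slc25a5, the form common in dividing cells.

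Fuel handling showed the muscle forms on top with other forms present. Slc2a4 (GLUT4), the insulin-responsive glucose transporter, read 15.53 ± 0.10, above Slc2a8 at 11.84 and Slc2a1 (GLUT1) at 10.44. Cpt1b, the muscle form of the enzyme that admits fatty acids to mitochondria, exceeded Cpt1a, the liver form, by 4.16 ± 0.09 (14.06 against 9.90). Ldhb, the lactate dehydrogenase of heart, exceeded Ldha, that of muscle, by 0.87 ± 0.15 (17.28 against 16.40) in all 4 mice. This difference is close to the median gap between probes of 0.86 and below the 1.47 of the top 1000. Ckmt2, mitochondrial creatine kinase, exceeded Ckm, the cytosolic muscle form, by 2.12 ± 0.33, below the upper quartile of probe gaps in the top 1000, 4.33.

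Further enzymes followed the same order. Pfkm, Pygm and Pgam2, muscle forms of phosphofructokinase, glycogen phosphorylase and phosphoglycerate mutase, led their families at 15.87, 15.45 and 15.86. Eno3, muscle enolase, exceeded Eno1 by 1.79, also below that upper quartile of 4.33. Aldoa, the muscle aldolase, read 17.46. Hk1 stood above Hk2, the muscle hexokinase, at 15.34 against 12.32. However, the brightest Hk1 probe is placed on chromosome 5, while the other 2, on chromosome 10, read 13.88 and 9.27, on either side of Hk2.

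Hormones and receptors spanned the whole range. Nppa, which encodes atrial natriuretic peptide, read 14.22, 14.85, 16.13 and 16.02 and exceeded Nppb, brain natriuretic peptide, in all 4 mice, by 1.77 ± 0.83. Nppc was not above background in any mouse. Of their receptors Npr2 read 11.61, Npr3 8.02 and Npr1, the receptor of the first 2 peptides, 6.80 and well above background in 2 mice only. Agtr1a, the angiotensin receptor that mediates most pressor effects, read 11.01 ± 0.09, and Agtr2 6.34. Adrb1, the main beta receptor of the heart, read 9.63, and the alpha receptors Adra1b and Adra1a 11.55 and 7.20. Chrm2, the vagal muscarinic receptor, read 10.03. Fxyd1 (phospholemman), which regulates the sodium pump in heart, read 16.43.

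In 7 families the brightest member was not the same in all mice. Gata4 and Gata6, transcription factors of the heart, averaged 12.15 and 12.10, and each led in 2 mice. Camk2g and Camk2d, calcium-dependent kinases, likewise led in 2 mice each, at 12.24 and 12.19. Tbx3 and Tbx5 read 10.82 and 10.76, and Pdk2 and Pdk4, kinases that shut pyruvate out of the citric acid cycle, 13.76 and 13.67. Rpl3l, the striated muscle paralogue of ribosomal protein L3, and Rpl3 itself read 14.47 and 14.33. These 5 differences were smaller than the SD of the difference over mice, as was that of the light chains Myl3 and Myl2. The remaining family was that of the connexins.

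**Figure D3:**
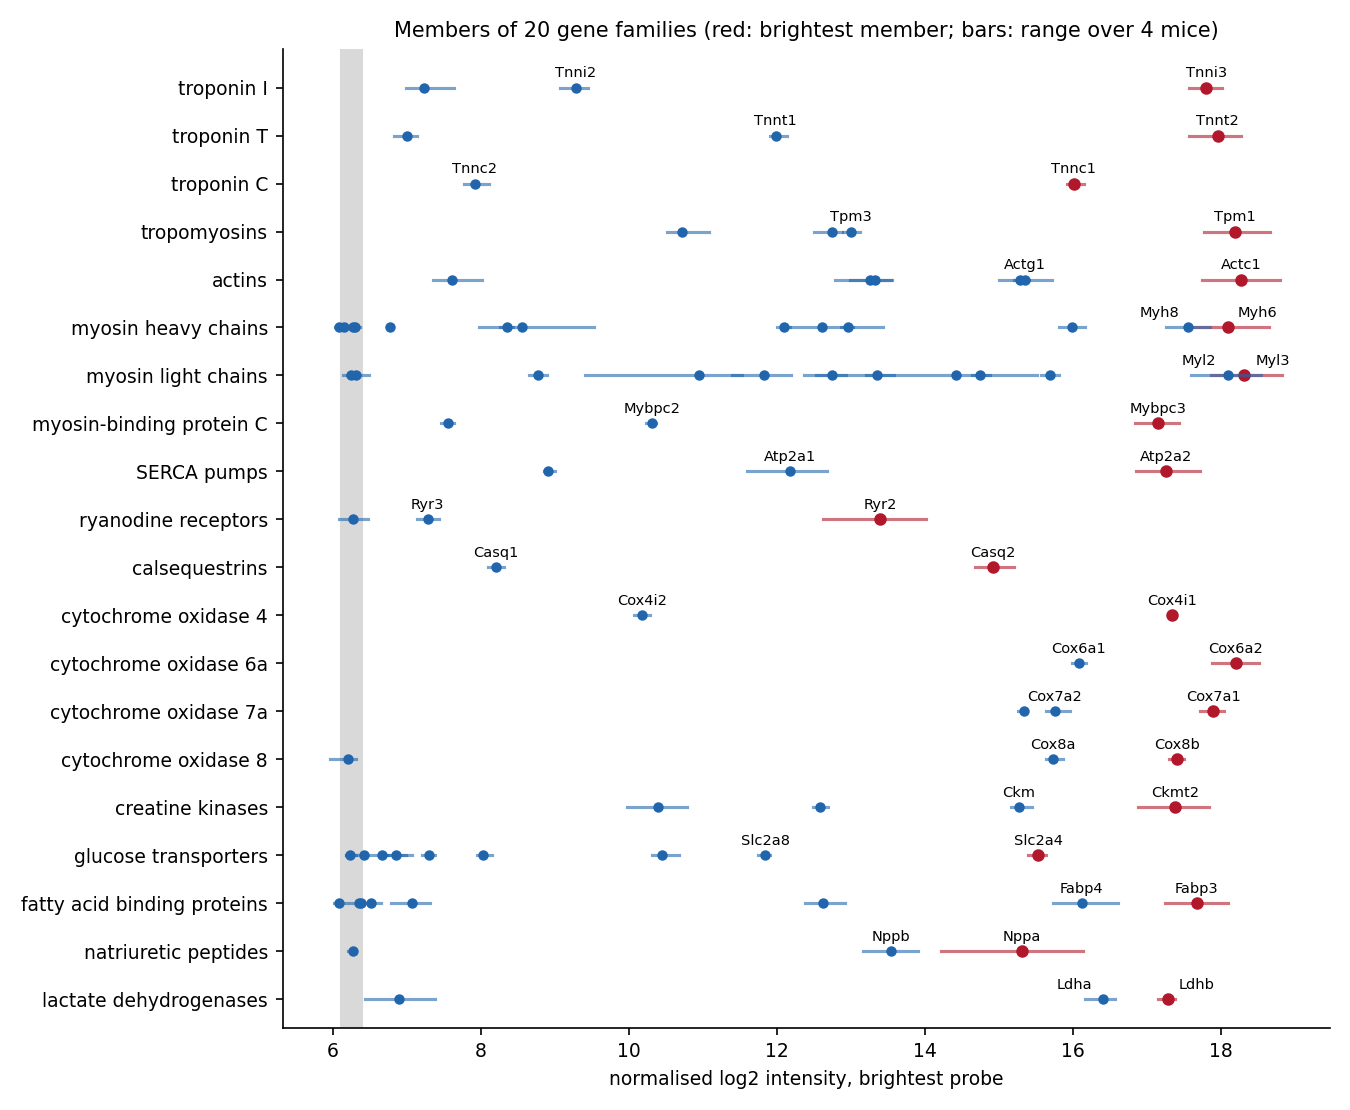
Log2 intensity of the brightest probe (horizontal axis) for the members of 20 gene families (vertical axis); red marks the brightest member, blue the others, bars give the range over 4 mice, and the grey band is the negative controls. Troponin I, troponin C and calsequestrin have gaps of 8.51, 8.09 and 6.71, while the ranges of Myl3 and Myl2 overlap.

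The labelled tissue was checked against 20 marker lists of cell types and organs, beside the list of the mitochondrial genome. All 16 cardiomyocyte markers were well above background in all 4 mice, with a median of 17.46, against 53.1% of all gene names. In these bulk samples, fewer cells of a type and less RNA per cell cannot be told apart. Endothelial markers were detected in 15 of 15, with a median of 12.04. They ran from Ly6c1, a surface protein of capillary endothelium, at 15.81, 15.43, 15.44 and 15.07 down to Tek, the angiopoietin receptor, at 9.16. Fibroblast markers were detected in 12 of 12 (median 11.42), from Dcn, the matrix proteoglycan decorin, at 15.99 ± 0.29 to Tcf21, a fibroblast lineage factor, at 8.54. Markers of smooth muscle and pericytes were detected in 11 of 11 (median 12.72), from Des (desmin, also made by cardiomyocytes) at 13.82 to Myh11, smooth muscle myosin, at 8.35.

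Blood and immune cells gave less complete lists, beside 58.9% of names with a current symbol detected in all 4 mice. Of 12 macrophage markers 11 were detected, from Csf1r, the receptor for macrophage growth factors, at 12.27 ± 0.09 (8.72 and 7.80 with its other probes) to Cd163, a scavenger receptor, at 6.62 and detected in 1 mouse. Of 11 lymphocyte markers 7 were detected, near that share, with a median of 7.26. Nkg7 read 10.32 with its brightest probe and 6.47 with its other one. Cd4, the co-receptor of helper T cells, headed them at 11.74, but its second probe read 6.89, and Cd3g, a T cell receptor chain, was not above background at 6.29. Of 9 erythroid entries 6 were detected, also near that share, from Hba-a1 at 17.30 ± 0.28 to Slc4a1, the anion exchanger of red cells, at 8.05. Hbb-b1 and Hbb-bt were read by the same probe.

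Other muscle and heart regions were less complete. Of 13 skeletal muscle markers 7 were detected, about the share of all gene names (53.1%), led by Acta1 at 13.32, and 6 had no mouse above background, including the fast myosins Myh1, Myh2 and Myh4 and the regulator Myod1. Of 8 conduction system markers only Tbx3 was detected in all 4 mice, and Isl1, a pacemaker lineage factor, read 6.32. Of 10 atrial markers 8 were detected, from Nppa to Kcnj3 at 8.44. Mesothelial markers were detected in 2 of 8 and adipocyte markers in 3 of 8, with Cfd (adipsin) at 8.75 and Ucp1, the brown fat uncoupler, at 6.14.

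Markers of 7 other organs were mostly dim: 15 of 57 were well above background in all 4 mice, a smaller share than the 53.1% of all gene names. None of 8 intestinal markers was, and 1 each of the lung, testis and pancreas lists, which were Scgb1a1 at 7.13, Prm1 at 7.69 and Ins2 at 8.69. The liver list had 5 of 10, led by Apoa2, an apolipoprotein, at 11.77 with its bright probe and 7.27 with its other one, while Alb (albumin) was not above background at 6.24. The brain list had 4 of 8, led by Snap25 with its CA repeat probe, while Gad1, which makes GABA, read 6.37. With a looser detection call the total rose to 31 or 36, so these counts depend on the call.

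**Figure D4:**
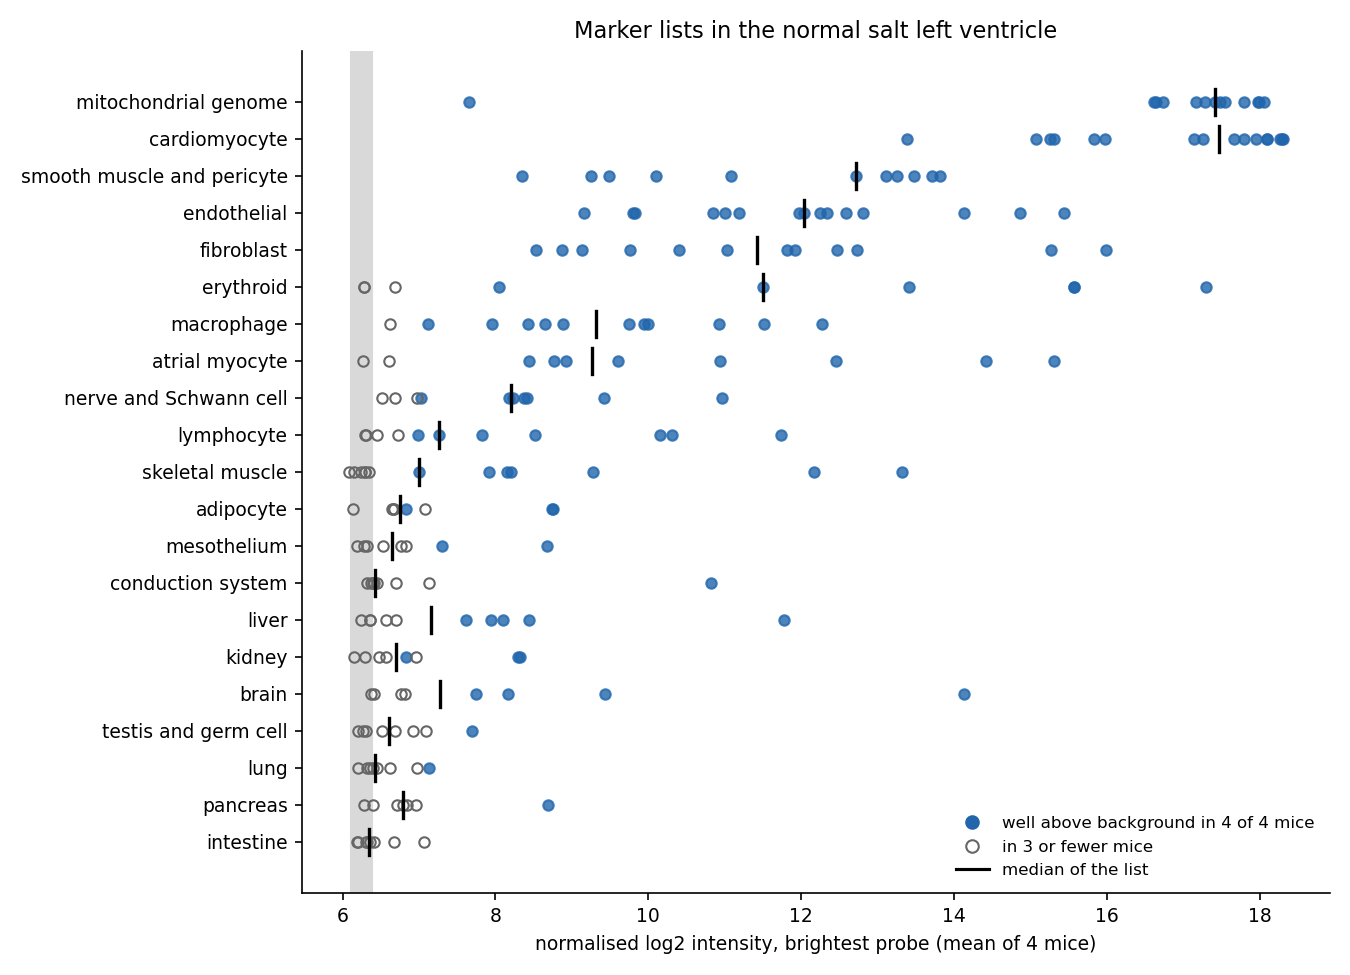
Mean log2 intensity over 4 mice (horizontal axis) of each member of 21 marker lists (vertical axis); filled points were well above background in 4 of 4 mice, open points in 3 or fewer, black lines are list medians, and the grey band is the negative controls. The cardiomyocyte and mitochondrial genome lists have medians of 17.46 and 17.42, the intestinal list 6.34.

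Families of sensory receptors were mostly without signal. Over all names with a current symbol, 25.1% had no probe above background in any mouse and 58.9% were above it in all 4. Fewer names were without signal under looser detection calls, as given below. Of 1094 olfactory receptor genes, 735 (67.2%) had no probe above background in any mouse and 76 (6.95%) were above it in all 4, and the brightest, Olfr544, reached 10.85 ± 0.10. Vomeronasal receptors were alike, with 114 of 165 Vmn1r and 63 of 91 Vmn2r genes in no mouse, as were bitter taste receptors, with 25 of 35. None of 44 beta defensin genes, which encode antimicrobial peptides of epithelia, was above background in all 4 mice. The homeobox clusters, which pattern the body axis, had 20 of 39 genes in no mouse and 6 in all 4. In contrast, mitochondrial ribosomal proteins were detected in 78 of 78 genes with a median of 12.85, and zinc finger (Zfp) genes in 283 of 379 with a median of 7.88.

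Promoters were compared for the TATAAA letters in RefSeq sequences (GRCm38.p6) of 300 bases around each start, on the strand of the gene. The letters occurred in 8.88% of all 27025 promoters, in 3 of 53 (5.66%) top 100 genes with a promoter in the table, in 5.41% of genes detected in all 4 mice and in 13.7% of genes with no signal in any mouse. Between 40 and 15 bases before the start they occurred in 2.22% of all, in none of the 53, in 1.79% of detected genes and in 4.64% of those without signal. The bright genes thus held the letters no more often than promoters at large. This is a count of letters and says nothing of how any of these promoters works.

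Some lists of genes differed among the 4 mice. Of 15908 genes measured and detected in all 4 mice, 690 (4.34%) had a range above 1. Atrial genes were lowest in N1 in 8 of 8 detected members of the list, while N1 was the lowest mouse for 4261 of the 15908 genes (26.8%). In all of these members but Nr2f2, both mice of the first array also read lower than both mice of the second. Kcnj3 hardly differed within the first array, at 8.20 in N1 and 8.21 in N2. A trait of N1 and a difference between the arrays therefore cannot be told apart in most of this list. Sln read 10.18, 12.44, 13.84 and 13.39 in N1 to N4. Myl4, the atrial essential light chain, read 12.37, 14.50, 15.51 and 15.31, and Myl7, the atrial regulatory light chain, 9.41, 11.29, 11.53 and 11.53. The mean of the other 3 mice minus N1 had a median of 1.69 over the genes of the list. Over the 15908 genes it was -0.01, a value largely set by the normalisation.

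Only 12 genes had N1 lowest by more than 1, and besides Sln, Myl4 and Myl7 they included Mybphl, a myosin-binding protein enriched in atria, at 7.45, 9.24, 10.17 and 10.498. N2, N3 and N4 were lowest by more than 1 in 3, 10 and 17 genes. Rcn1, a calcium-binding protein of the endoplasmic reticulum, read 7.57, 9.84, 11.10 and 10.94, and Hamp, which encodes hepcidin, 7.25, 8.63, 8.98 and 9.32. Dkk3, also on the atrial list, read 7.47 and 8.13 on the first array and 10.24 and 9.84 on the second. Of the ventricular light chains, Myl3 was also lowest in N1, at 17.86 against 17.90 to 18.82, and Myl2 was not. How much atrial tissue each sample held was not tested.

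Stress-response genes differed between the dyes. Both Cy5 mice exceeded both Cy3 mice in 13 of 20 detected immediate-early genes, which are transcribed within minutes of a stimulus, and in 10 of 13 heat shock chaperone genes, against 3258 of 15908 genes (20.5%). Nr4a1, an orphan nuclear receptor, read 10.52 and 10.66 in the Cy3 mice N1 and N3 and 12.28 and 12.56 in the Cy5 mice N2 and N4. Dusp1, a MAP kinase phosphatase, read 9.97 and 9.96 against 10.96 and 10.97. Gadd45b, a stress sensor of the same list, ran the other way, with 9.30 and 9.33 against 8.62 and 8.34.

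Among the chaperones Hspa1a, an inducible HSP70, read 7.21, 8.34, 7.66 and 10.63 in N1 to N4, and Dnajb1, its co-chaperone, 11.37, 12.49, 11.503 and 13.49, so that N4 was the highest mouse in both. Hspa8, the constitutive HSP70, read 16.59, 17.22, 16.26 and 17.11. The median difference between Cy5 and Cy3 mice was 0.50 over the immediate-early list and 0.55 over the chaperones. Over all detected genes it was 0.00, which the normalisation of the dyes largely sets. These lists were written after the pattern had been seen, and a property of the dye and a difference between the mice cannot be told apart.

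Other bright genes differed between arrays. Rplp1, a stalk protein of the large ribosomal subunit, read 15.51 and 15.46 on the first array and 16.70 and 16.86 on the second, and Rps28, Rpl23a and Eef2, the translocating elongation factor, had the same order, with ranges of 1.32, 1.196 and 1.21. The mice of 1 array did not overlap with those of the other in any of these 4 genes. The beta-globin Hbb-bt ran the other way, at 15.72 and 16.33 on the first array and 14.93 and 15.28 on the second. Kctd14 and Zfp408, read by the B1 and B2 letters, had ranges of 1.40 and 1.89.

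**Figure D5:**
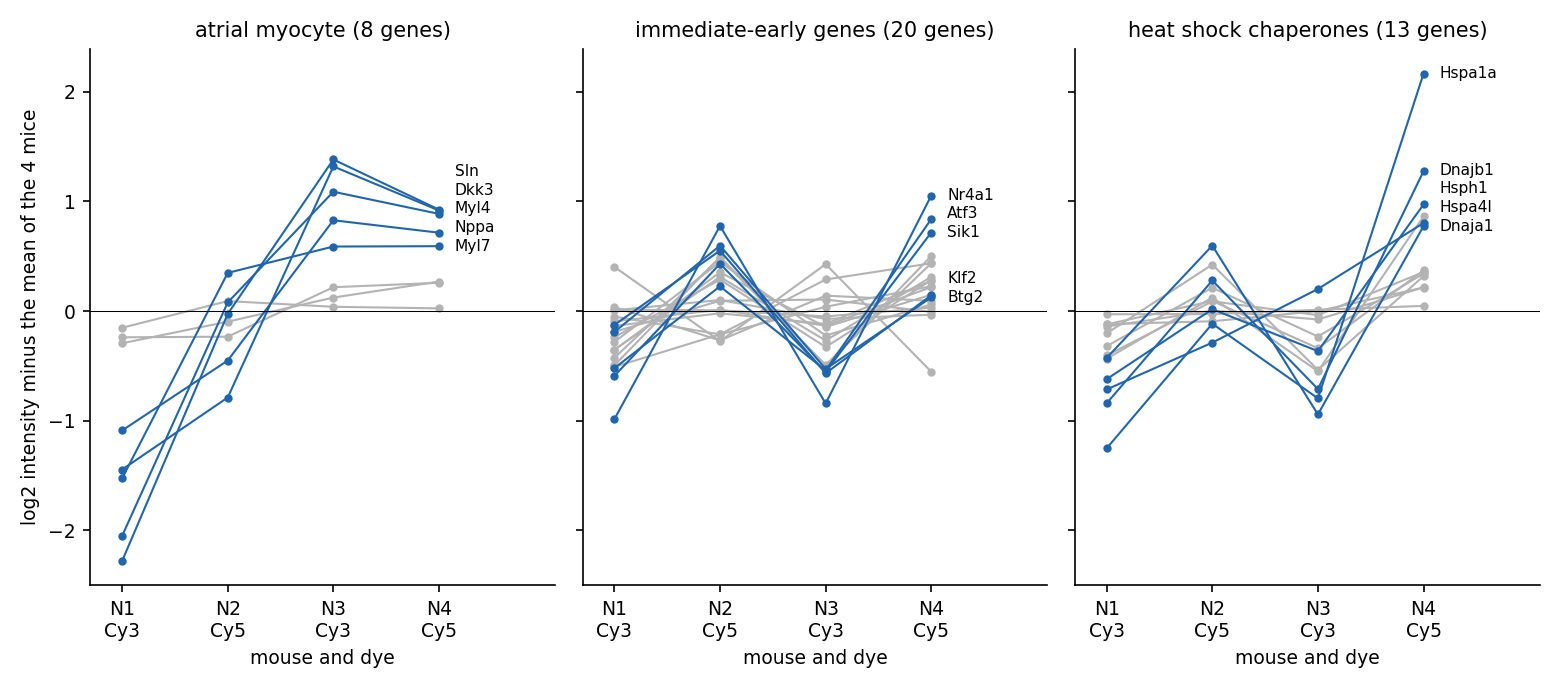
Log2 intensity of each gene minus its mean over 4 mice (vertical axis) by mouse and dye (horizontal axis), for the detected genes of the atrial, immediate-early and heat shock lists; each line is a gene, with the 5 of widest range in each list named and in blue and the others in grey. Atrial genes are lowest in N1, and most immediate-early and heat shock genes are higher in the Cy5 mice N2 and N4.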

How the data were processed

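Per the file headers, the authors read the arrays with Agilent Feature Extraction 11.5.1.1. The deposited intensity of a spot and of its surroundings, per channel, was not yet normalised. For the 4 samples, normexp (offset 50) took the background median from the mean signal, loess evened out each array and Aquantile the pair of arrays, in limma 3.58.1 (R 4.3.3). Ranking used Python 3.11.15. Control spots and spots with an outlier flag were left out of the ranked values, and spots of a probe averaged. The detection calls of genes kept spots with an outlier flag, and control spots stayed in the normexp and Aquantile steps. Probes took current names through a RefSeq gene table (GRCm38.p6), and 7973 kept the name in the file. Named genes were the 30 brightest with a symbol, leading members of each family and extremes of each marker list. They also included the 10 widest ranges among those of the 1000 brightest with a symbol and a value in all 4 mice. A few genes that this rule names are not reported here, and other genes were chosen after their values were seen. Members, families, lists and letters were chosen with earlier results of these data known. The ranking steps were tested on simulated data. Alternatives covered correction, normalisation, detection call, probe rule and samples used.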

Additional observations from a re-analysis of the deposited data

Results flagged for a closer look

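Of 171 genes named above that were measured in all 4 mice, 7 had a mouse whose gap to the nearest other mouse took up nearly all of the range, by Dixon's criterion at the 95% level. Chance alone gives about 1 in 20 such cases, and no mouse accounted for more than 3 of them.

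The widest was Myl7, the atrial light chain, at 9.41 in N1 against 11.29 to 11.53 in the other mice. Acta1, skeletal alpha-actin, was low in N3, at 12.78 against 13.47 to 13.54. Snap25 and Fgf23, both read by a CA repeat, were high in N2, at 14.51 and 14.56, against at most 14.03 in the others. Agtr2 was also high in N2, at 6.95, and was well above background in 1 mouse only. Rpl3 was high in N1, at 14.47 against 14.29 or less. Gad1 was at 6.32 in N4, near the negative controls, with a range of 0.07.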

How the results depend on the processing

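The calls of presence depended most on the detection rule: genes not above background in any mouse numbered 3897 with the scanner's positive and significant call and 2136 with the 95th percentile of negative controls, against 8940. Markers of other organs detected in all mice numbered 31 and 36 under these rules, against 15. In the Cy5 samples alone, where detection in 2 mice was enough, they numbered 26. The median gap between probes was 1.65 with the scanner's processed signal, 0.901 with no background correction, 1.13 with a normexp offset of 10, 1.17 over probes well above background and 0.880 on the array of N1 and N2, against 0.861. The median SD over mice was 0.168 with the processed signal and 0.188 with no background correction, and 0.0921, 0.0996, 0.0977 and 0.0869 with Cy3, Cy5, the first or the second array alone, against 0.132. Without 1 mouse in turn, detected genes numbered 16033 to 16551, those in no mouse 8961 to 10655, organ markers 15 to 19, families with 1 leader in all mice 60 to 63 and top 100 genes kept 97 to 98; the probe gap was 0.857 to 0.868 and the SD 0.121 to 0.135.

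Family leaders were the same under all scales of intensity in 65 of 67 families, in all subsets of samples in 62 and under all probe rules in 55. With the dimmest probe of each gene, among others, Actn4 led Actn2, Myh7b led Myh6, Tpm4 led Tpm1 and Hk2 led Hk1, and with the scanner's processed signal Gata6 led Gata4 and Tbx5 led Tbx3. Camk2d led Camk2g without replicate 1, without replicate 2, in the Cy5 samples alone and on the second array alone. The 30 brightest named genes stayed above 99% of all genes, except 9 with the dimmest probe and 8 with the median probe, where Myh8 was lowest, above 16.4% and 73.0%. No paired analysis was possible because the replicate numbers pair no groups within 1 diet. Signal near background limits the calls of absence.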

Other observations

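A few dim genes were bright on 1 array only, and their spots lay together on the slide. Of 56 spots brighter by more than 3 on the log2 scale on the first array, 53 (94.6%) had another such spot within 2 rows and columns, and of 57 brighter on the second array 53 (93.0%) did, against 0.740% and 0.875% of other spots. They carry the brightest probe of 98 gene names, of which 33 were well above background in all 4 mice. None of the 98 was in the top 1000, and the highest stood at place 3776. No member of the families or marker lists was among them. Without these spots 16005 gene names were detected in all 4 mice and 8950 in none.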
